A study of Schizosaccharomyces pombe with 6 samples.

Results

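The genes for the proteins of the cytosolic ribosome were examined in peak lists from calibrated ChIP-seq of CFP-Cnp1, the fission yeast CENP-A histone fused to a fluorescent protein. They were taken by symbol, as every protein-coding gene of the ASM294v3 annotation named *rpl*, *rps* or *rpp* followed by a digit, which gave 141 of the 5113 protein-coding genes on the 3 chromosomes. All 4972 other protein-coding genes served as background. The study asked where Cnp1 sits when SUMO chains cannot form. *SUMO-KallR* cells (*pmt3-KallR CFP-cnp1:Kan ade6-704 leu1-32 ura4-D18*) carry SUMO in which all lysines are changed to arginine. WT cells (*CFP-cnp1:Kan ade6-704 leu1-32 ura4-D18*) have normal SUMO. The untagged strain, for which no further genotype is given in the sources used here, lacks CFP-Cnp1, the target of the anti-GFP antibody. Its peaks therefore do not come from CFP-Cnp1, and what gives rise to them was not tested. Cells of each strain were grown to logarithmic phase in rich YES medium and mixed with budding yeast Scc1-Pk cells as calibrator. One ChIP library was made from each strain, with no replicate, and no difference between strains could be set against an experimental error.

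Each ribosome is built from a large 60S and a small 40S subunit, and most of their proteins are needed in equal amounts. The genes are short and among the most strongly transcribed in growing yeast, and many are kept as pairs of nearly identical paralogs. Strongly transcribed genes are known from budding yeast ChIP experiments as places where signal can appear for proteins that do not bind there. Transcript levels were not measured in these libraries, so transcription enters below only through what is known of these genes.

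By symbol, 76 of the 141 genes (*rpl*) were counted to the 60S subunit and 55 (*rps*) to the 40S subunit. Among these, *rpl701* has the annotated product RNase MRP subunit, ribosomal protein L7-like. The *rpp* genes were divided by annotated product, and 7 of them encode proteins of the acidic stalk of the 60S subunit (P0, P1 and P2). The remaining 3, *rpp1*, *rpp21* and *rpp40*, match the symbol but encode subunits of RNase P or RNase MRP, the enzymes that trim tRNA and ribosomal RNA precursors. Each gene was examined as a window of its annotated body with 300 bp upstream. These windows measured 986 bp in the median (585 to 2998 bp) for the ribosomal protein genes and 2107.5 bp for the other genes. No protein-coding gene lay closer than 14660 bp to the highest WT summit of its chromosome, which marks the centromere, so all genes compared are genes of the arms.

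The lists differ greatly in extent. The *SUMO-KallR* list holds 1615 peaks over 92.8% of the 3 chromosomes, the WT list 59 peaks over 1.12% and the untagged list 961 peaks over 95.2%. Nearly every gene of *SUMO-KallR* and untagged cells therefore lies under some peak, and the position of the summit, the highest point of a peak, tells more than the presence of a peak. Why the untagged list is so much wider than the WT list, made with the same antibody, was not tested. The height of a peak is given as the deposited score divided by 10, read as the top −log10 of the *p*-value reached by that peak. Heights reflect the sequencing depth of a library and were compared only within 1 list. Where heights from different lists stand in the same sentence, no difference between strains is meant. The lists hold no read counts, so a height has no error.

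Promoters of fission yeast ribosomal protein genes are known for the HomolD box (CAGTCACA), which does the work of a TATA box there, and for the HomolE box, a tandem repeat of ACCCT. HomolD stood, on either strand, in the 300 bp upstream of 88 of the 141 genes (62.4%) against 46 of the 4972 other genes (0.925%). HomolE stood upstream of 41 ribosomal protein genes (29.1%) and of 23 other genes (0.463%), and 23 ribosomal protein genes had both boxes. Neither exact box was found upstream of 35 of them. HomolD started 51 bp before the annotated start in the median. The 200 bases before the start are shown 5′ to 3′ on the strand of the gene for *rpl301* and for 5 other genes. *rpl301* had the highest *SUMO-KallR* summit of the ribosomal protein genes, and the 5 have a summit in both the *SUMO-KallR* and the untagged list. Capitals mark HomolD and HomolE, in the forward or the reverse orientation, and the positions are those of ASM294v3.
*rpl301* (chrI:1755885-1756084, plus strand): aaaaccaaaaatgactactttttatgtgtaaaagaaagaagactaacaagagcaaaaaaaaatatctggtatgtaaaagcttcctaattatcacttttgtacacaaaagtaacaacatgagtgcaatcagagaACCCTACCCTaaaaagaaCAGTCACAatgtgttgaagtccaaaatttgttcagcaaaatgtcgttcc
*rpl302* (chrI:4919028-4919227, minus strand): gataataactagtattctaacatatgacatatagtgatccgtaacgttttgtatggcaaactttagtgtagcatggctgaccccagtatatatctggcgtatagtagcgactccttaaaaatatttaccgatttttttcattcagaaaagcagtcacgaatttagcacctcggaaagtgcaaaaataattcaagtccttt
*rpl501* (chrI:3410745-3410944, plus strand): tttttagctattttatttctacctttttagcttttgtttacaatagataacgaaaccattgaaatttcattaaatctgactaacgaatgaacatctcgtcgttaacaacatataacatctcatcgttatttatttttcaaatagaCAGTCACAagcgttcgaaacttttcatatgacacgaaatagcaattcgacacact
*rpl1001* (chrII:2081281-2081480, plus strand): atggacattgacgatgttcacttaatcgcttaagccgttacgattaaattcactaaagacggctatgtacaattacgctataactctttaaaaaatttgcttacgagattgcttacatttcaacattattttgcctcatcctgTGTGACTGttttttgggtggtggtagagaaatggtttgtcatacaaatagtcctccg
*rps602* (chrI:3319050-3319249, plus strand): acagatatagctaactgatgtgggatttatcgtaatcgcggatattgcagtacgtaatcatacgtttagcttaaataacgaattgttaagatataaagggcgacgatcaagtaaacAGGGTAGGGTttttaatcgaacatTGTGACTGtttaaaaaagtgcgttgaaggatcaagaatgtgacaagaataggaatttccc
*rps2302* (chrII:2896887-2897086, plus strand): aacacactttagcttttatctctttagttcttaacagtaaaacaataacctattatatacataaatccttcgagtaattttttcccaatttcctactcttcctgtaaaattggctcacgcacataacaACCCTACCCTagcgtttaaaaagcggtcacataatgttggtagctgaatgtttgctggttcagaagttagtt
Among these 6, *rpl301* and *rps602* carry both boxes, *rpl501* and *rpl1001* carry HomolD, *rps2302* carries HomolE and *rpl302* carries no exact match to either. No exact box is thus shared by the 5 genes with a summit in both lists. Inexact matches were not counted. The stretches of *rpl302* and *rps2302* hold cagtcacg and cggtcaca, each a single base from HomolD.

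In *SUMO-KallR* cells, 28 of the 141 ribosomal protein genes (19.9%, 95% exact interval 13.6 to 27.4%) had a summit in their window, against 27.5% of the other genes (1369 of 4972, interval 26.3 to 28.8%). In untagged cells, 15 of them (10.6%, interval 6.08 to 16.9%) had one, against 15.2% of the other genes (757, interval 14.2 to 16.3%). In WT cells no ribosomal protein gene had a summit, against 0.322% of the other genes (16). Per gene, the share was lower in ribosomal protein genes in each list, but the untagged interval includes the share of the other genes and the *SUMO-KallR* interval ends just below it. These intervals take genes as independent and cover counting over genes only.

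The order turned round when summits were counted per length of DNA. The ribosomal protein genes held 18.9 summits per 100 kb of window in *SUMO-KallR* cells (exact Poisson interval 12.6 to 27.3) against 11.9 in the other genes (11.3 to 12.6). In untagged cells they held 10.1 per 100 kb (5.67 to 16.7) against 6.59 (6.14 to 7.07). A short window has less room for a summit, and a list places only 1 summit in each peak, so both counts are given. With peaks closer than 500 bp merged, 12.1% of ribosomal protein genes and 10.3% of other genes had a *SUMO-KallR* summit. In fixed windows of 300 bp on each side of the start, the same length for every gene, 3.55% and 4.12% had a *SUMO-KallR* summit, and 2.84% and 2.67% an untagged one.

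Within classes of window length the shares per gene lay close together. Of windows under 1 kb, 10 of 76 in ribosomal protein genes (13.2%) and 46 of 336 in other genes (13.7%) had a *SUMO-KallR* summit. Of windows from 1 to 2 kb, 18 of 64 (28.1%, interval 17.6 to 40.8%) and 426 of 1935 (22.0%, interval 20.2 to 23.9%) had one. In untagged cells the shares were 10.5% in ribosomal protein genes and 7.44% in other genes under 1 kb, and 10.9% and 11.7% from 1 to 2 kb. In both classes of both lists the interval of the ribosomal protein genes includes the share of the other genes. Among all windows under 2 kb, a grouping chosen after these values had been seen, 20.0% of ribosomal protein genes and 20.8% of other genes had a *SUMO-KallR* summit. The classes do not match length in full. From 1 to 2 kb, the 64 windows of ribosomal protein genes spanned 79.43 kb and the 1935 others 3006 kb. Per 100 kb, these held 22.7 *SUMO-KallR* summits (exact Poisson interval 13.4 to 35.8) against 14.3, and windows under 1 kb 15.2 against 17.3.

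**Figure D1:**
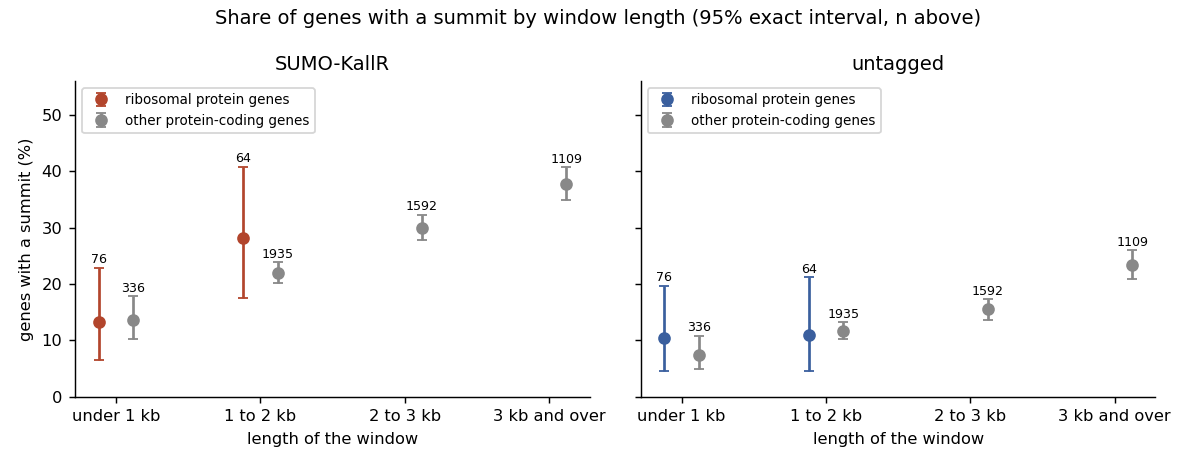
Percentage of genes with a summit in their window, by window length, for *SUMO-KallR* and untagged ChIP, in ribosomal protein genes (colour) and other protein-coding genes (grey), with 95% exact intervals and the number of genes above each point. The share rises with window length in the other genes, from 13.7% under 1 kb to 37.8% at 3 kb and over in *SUMO-KallR* cells, and the coloured points lie within about the same range as the grey points beside them. The class from 2 to 3 kb holds only 1 ribosomal protein gene, which is not drawn.

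Every summit in a ribosomal protein gene lay in the gene body, and none lay in the 300 bp upstream, although this upstream part makes up 28.6% of the window length. In *SUMO-KallR* cells 25 of the 28 summits fell in coding sequence, 2 in introns and 1 in a 3′ untranslated region. In untagged cells 10 of the 15 fell in coding sequence, 3 in introns and 2 in 3′ untranslated regions. Coding sequence makes up 47.7% of the window length. In the other genes, 2.85% of their *SUMO-KallR* summits and 5.55% of the untagged summits lay in the upstream part, which makes up 12.7% of their length.

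Counted in gene bodies alone, ribosomal protein genes held 26.5 *SUMO-KallR* summits per 100 kb (interval 17.6 to 38.3) against 13.3 in other genes (12.6 to 14.0). In untagged cells the values were 14.2 (7.94 to 23.4) and 7.13 (6.62 to 7.67). These densities are not matched for length. Over whole windows, other genes held 17.3 *SUMO-KallR* summits per 100 kb under 1 kb and 9.65 at 3 kb and over. Ribosomal protein genes held 15.2 against 17.3 under 1 kb, and 22.7 against 14.3 from 1 to 2 kb. In untagged cells the values were 12.2 against 9.42 and 8.81 against 7.55. Upstream, 0 summits in 42.3 kb give an interval of 0 to 8.72 per 100 kb, which includes the 2.68 and 2.88 per 100 kb of the other genes in the *SUMO-KallR* and untagged lists. The absence of upstream summits is therefore not distinguishable from the background at this number of genes. Summits lay 210 to 878 bp behind the annotated start in *SUMO-KallR* cells (median 488.5 bp) and 69 to 1078 bp behind it in untagged cells (median 367 bp).

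**Figure D2:**
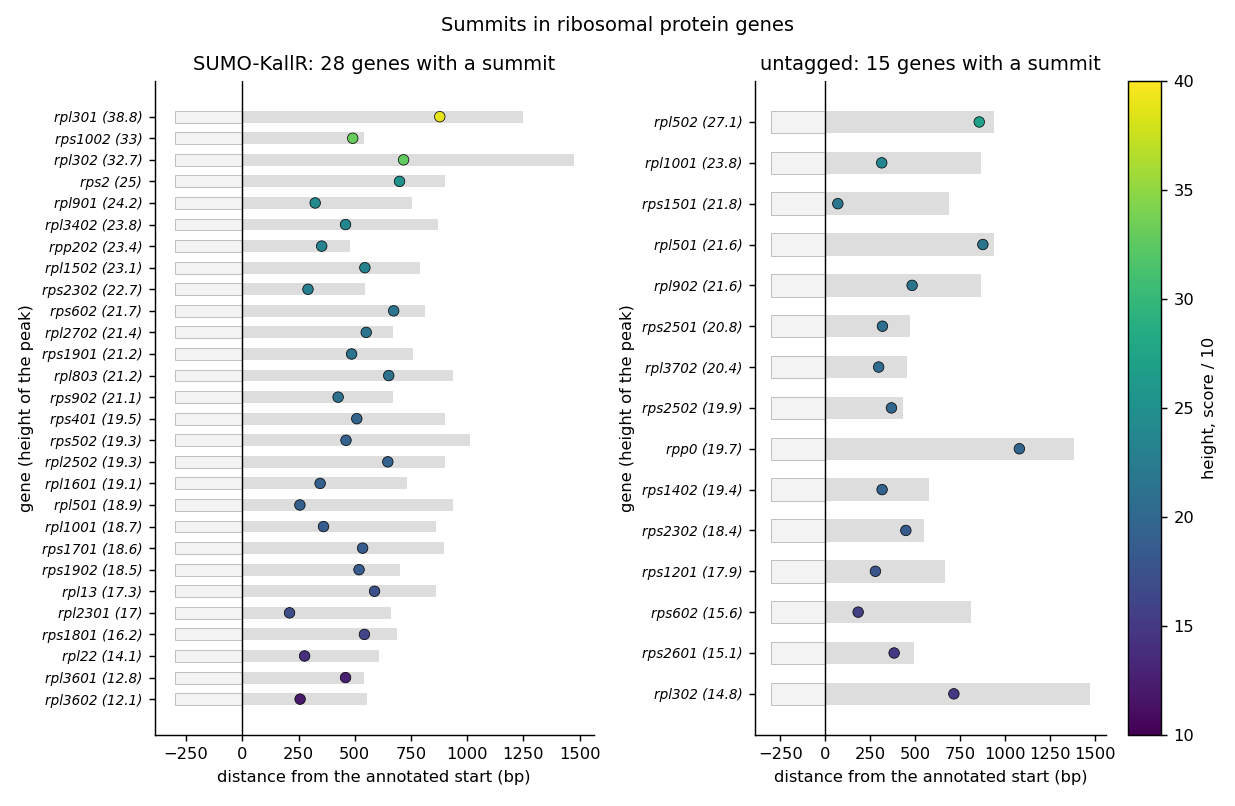
Position of each summit (dot, coloured by height) in the ribosomal protein genes that hold one, for *SUMO-KallR* (28 genes) and untagged ChIP (15 genes), on an axis of distance from the annotated start in bp. Grey bars are gene bodies, light bars the 300 bp upstream, and the height of the peak stands beside each symbol. All dots lie right of the start, inside a gene body, in both lists.

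Among the 60S genes, 16 of 76 (21.1%) had a *SUMO-KallR* summit and 6 of 76 (7.89%) an untagged one. The highest belonged to the pair for L3, a protein that reaches to the peptidyl transferase centre. *rpl301* had a *SUMO-KallR* summit of height 38.8, rank 8 of the 1344 summits in gene windows, and no summit in WT or untagged cells. *rpl302* had *SUMO-KallR* and untagged summits of 32.7 and 14.8, and none in WT cells. The pair thus held the 1st and 3rd highest *SUMO-KallR* peaks of the ribosomal protein genes.

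The coding sequences of *rpl301* and *rpl302* are 96.3% identical and share an unbroken identical stretch of 848 bp, from coding base 313 to 1160 in both, counted from 1 at the start codon. All 3 summits lie inside it, at coding base 855 in *rpl301* and at coding bases 682 (*SUMO-KallR*) and 679 (untagged) in *rpl302*. Of the 150-base sequences that cover these summits, 0% occur once in the genome, while at every other summit in a ribosomal protein gene 100% do. A read of that length from this stretch cannot be told apart between both copies, so the height of each peak cannot be assigned to 1 of them. The *SUMO-KallR* summit is shown with 50 bases on each side for each gene, 5′ to 3′ on the gene's strand, with the summit base in capitals, and in *rpl302* also the untagged summit base, which lies 3 bp upstream of the other one.
*rpl301* (chrI:1756913-1757013, plus strand): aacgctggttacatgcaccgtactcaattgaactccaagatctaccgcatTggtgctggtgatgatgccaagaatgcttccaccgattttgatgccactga
*rpl302* (chrI:4918260-4918360, minus strand): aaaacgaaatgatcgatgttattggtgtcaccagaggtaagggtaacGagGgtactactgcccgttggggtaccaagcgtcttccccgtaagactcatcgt
Both stretches are coding and have GC contents of 47.5% (*rpl301*) and 49.5% (*rpl302*). The whole bodies of these genes have 48.7% and 45.2%, so of the stretches shown only that of *rpl302* lies above its own gene. In the 201 bp around the *SUMO-KallR* summits the values were 50.2% (*rpl301*) and 50.7% (*rpl302*), both above the gene. The mean over the bodies of all ribosomal protein genes was 42.3%.

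Other 60S genes had lower *SUMO-KallR* summits. *rpl901*, for L9 of the 60S subunit, had a *SUMO-KallR* summit of 24.2, while its paralog *rpl902* had an untagged summit of 21.6 and no *SUMO-KallR* one. *rpl3402* (L34) and *rpl1502* (eL15) followed with 23.8 and 23.1 in *SUMO-KallR* cells. Neither had a WT or an untagged summit, and their paralogs *rpl3401* and *rpl15* had none in any list. The lowest *SUMO-KallR* summits, 12.8 and 12.1, were those of the L36 pair *rpl3601* and *rpl3602*.

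In untagged cells the highest ribosomal protein summit was that of *rpl502*, at 27.1, rank 38 of 725. Its paralog *rpl501* had 18.9 in *SUMO-KallR* cells and 21.6 in untagged cells. Both genes encode the protein that carries 5S ribosomal RNA into the 60S subunit, and their untagged summits lay near the same place, at coding bases 842 (*rpl502*) and 870 (*rpl501*) of 885. Second in untagged cells was *rpl1001*, with 23.8 there and 18.7 in *SUMO-KallR* cells. It encodes L10, which completes the 60S subunit in the cytoplasm. Its paralog *rpl1002*, with 97.9% identity in coding sequence, had no summit in any list. *rpl3702*, for eL37, had an untagged summit of 20.4 and no other, and its paralog *rpl3703* had none.

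Among the 40S genes, 11 of 55 (20.0%) had a *SUMO-KallR* summit and 8 of 55 (14.5%) an untagged one. *rps1002*, for eS10, had the highest *SUMO-KallR* summit of them, at 33.0, and no other, while its paralog *rps1001* had none. *rps2*, for uS5 near the entry of the mRNA, had a *SUMO-KallR* summit of 25.0 and no other. *rps2302* encodes uS12, a protein of the decoding centre, and had 22.7 in *SUMO-KallR* cells and 18.4 in untagged cells. *rps602* encodes eS6, the target of S6 kinase, and had 21.7 in *SUMO-KallR* cells and 15.6 in untagged cells. Their paralogs *rps23* and *rps601* had no summit in any list.

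Both copies of the eS19 gene had a *SUMO-KallR* summit, *rps1901* at 21.2 and *rps1902* at 18.5. They lay at coding bases 312 and 306, and neither had an untagged summit. In untagged cells *rps1501* (uS19) came first among 40S genes, at 21.8, followed by the eS25 pair *rps2501* and *rps2502* at 20.8 and 19.9. None of these had a *SUMO-KallR* summit, and *rps1502* had no summit in any list. *rps1402*, for uS11, had an untagged summit of 19.4 and no other, and its paralog *rps1401* had none. The summit of *rps1501* lay 69 bp behind its start, also inside the window of *spt2*, and cannot be assigned to 1 gene. The same holds for the *SUMO-KallR* summits of *rps902*, shared with *pdp1*, and *rpp202*, shared with SPBC23G7.14.

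Of the 7 stalk genes, *rpp202*, for P2, had a *SUMO-KallR* summit of 23.4 and no other. *rpp0*, for the P0 protein that anchors the stalk, had an untagged summit of 19.7 in a peak 59295 bp wide. The other stalk genes, among them the *rpp202* paralogs *rpp201* and *rpp203*, had none. *rpp203* came closest from outside, with a *SUMO-KallR* summit 8 bp beyond its window, whereas from inside the *SUMO-KallR* summit closest to the edge of its window was that of *rps1002*, 50 bp from it. In untagged cells the nearest outside was that of *rpl701*, 83 bp beyond, and the nearest inside were those of *rpl501* and *rps2502*, each 61 bp from the edge. The RNase P and MRP genes *rpp1*, *rpp21* and *rpp40* held no summit in any list.

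A summit in both the *SUMO-KallR* and the untagged list was found in 5 ribosomal protein genes (3.55%), against 7.4% of the other genes. They are *rps602*, *rpl501*, *rpl302*, *rpl1001* and *rps2302*, and make up 17.9% of the genes with a *SUMO-KallR* summit and 33.3% of those with an untagged one. In other genes these shares were 26.9% and 48.6%. The paired summits lay 3 bp apart in *rpl302* and 48 bp apart in *rpl1001*, but 155 bp apart in *rps2302*, 491 bp in *rps602* and 619 bp in *rpl501*. A summit in both lists thus meant the same place to within 100 bp in only 2 of the 5 genes. Of the remaining ribosomal protein genes, 23 had a *SUMO-KallR* summit only, 10 an untagged one only and 103 neither.

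Summits were also counted by family. Grouped by symbol and by coding sequences of at least 60% identity, 117 of the genes fall into 56 families of more than 1 copy. In *SUMO-KallR* cells 34 of these families held no summit, 19 held one in a single copy and 3 (*rpl3*, *rpl36* and *rps19*) in both copies. In untagged cells 44 families held none, 10 held one in a single copy and 2 (*rpl5* and *rps25*) in both. The summits of the *rpl3* pair cannot be assigned to 1 copy, as described above. Gene by gene, 19.9% of ribosomal protein genes and 27.5% of other genes had a *SUMO-KallR* summit, and 10.6% and 15.2% an untagged one. The number of families expected from these shares was not computed, and whether paralogs share summits was not tested. Median coding identity over the families, taking the closest pair of each, was 87.6%.

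All 141 windows were at least partly under peaks in *SUMO-KallR* and in untagged cells. In *SUMO-KallR* cells 105 (74.5%, interval 66.4 to 81.4%) lay wholly under peaks, against 70.3% of the other genes. In untagged cells 119 (84.4%, interval 77.3 to 90.0%) did, against 85.0%. In WT cells no ribosomal protein gene overlapped a peak, against only 0.322% of the other genes (16), and no gene of either group lay wholly under one. In both lists the interval of the ribosomal protein genes includes the share of the other genes. The gene bodies alone gave another picture in *SUMO-KallR* cells, where 13 ribosomal protein genes (9.22%, interval 5.0 to 15.3%) had a body not wholly covered, against 17.9% of the other genes (interval 16.9 to 19.0%). In untagged cells there were 8 (5.67%, interval 2.48 to 10.9%) against 8.29%. Bodies of ribosomal protein genes are shorter, and shares of whole coverage were not compared at matched length.

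What stayed free of peaks was mainly upstream DNA. Upstream of the start, *SUMO-KallR* peaks covered 81.9% of the bases of ribosomal protein genes against 84.3% in other genes, and untagged peaks 90.3% against 91.5%. In gene bodies *SUMO-KallR* peaks covered 99.5% against 98.1%, and untagged peaks 99.8% against 99.0%. The upstream part was thus the less covered one in other genes too. Of all uncovered bases in these windows, 94.2% in *SUMO-KallR* cells and 94.0% in untagged cells lay upstream, against 54.2% and 54.6% in the windows of other genes, whose longer bodies hold more of the window. An upstream part not wholly covered was found in 36 ribosomal protein genes in *SUMO-KallR* cells (25.5%, interval 18.6 to 33.6%) against 22.6% of the other genes. In untagged cells there were 22 (15.6%, interval 10.0 to 22.7%) against 12.2%, and 15 genes were in both sets. These make up 41.7% of the *SUMO-KallR* set and 68.2% of the untagged one, against 42.2% and 77.9% in other genes.

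The profile around the start has the same form in both lists. Coverage of the ribosomal protein genes was lowest 190 bp before the start in *SUMO-KallR* cells, at 77.2%, and 150 bp before it in untagged cells, at 86.7%. In other genes the lowest values were shallower, 82.1% at 270 bp and 90.3% at 230 bp before the start. Each is the lowest of many bins, over 141 and 4972 genes and without an interval, so the difference in depth was not tested. At 410 bp behind the start, 100.0% of the ribosomal protein genes lay under peaks in each list, against 97.9% of other genes in *SUMO-KallR* cells and 98.7% in untagged cells.

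**Figure D3:**
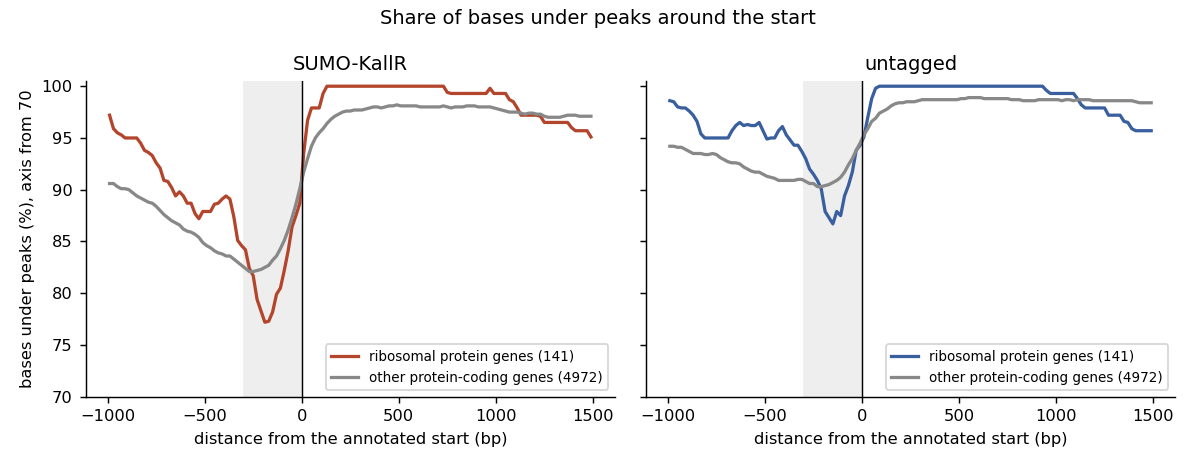
Percentage of bases under peaks in bins of 20 bp around the annotated start (vertical line; grey band, the 300 bp upstream) for 141 ribosomal protein genes (colour) and 4972 other genes (grey), in *SUMO-KallR* and untagged ChIP, on an axis that begins at 70%. The coloured lines dip to 77.2% and 86.7% before the start and reach 100.0% in the gene body.

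In *SUMO-KallR* cells the least covered window was that of *rpl4102*. This gene, 1 of the 2 genes for eL41, the smallest ribosomal protein, had 29.6% of its window covered in *SUMO-KallR* cells and 56.2% in untagged cells, and was the only one with less than 50% in either list. Its upstream part was bare in *SUMO-KallR* cells over all 300 bp and in untagged cells over 256 bp. Only 70.1% of the 150-base sequences of its window occur once in the genome. Its paralog *rpl4101* had 72.9% and 100.0% covered in the same lists. Next in *SUMO-KallR* cells came *rps1702* (eS17) with 65.1%, *rpl39* with 68.7%, *rpp202* with 69.3% and *rpl3801* (eL38) with 70.0%. Of these, *rps1702*, *rpp202* and *rpl3801* were wholly covered in untagged cells. In untagged cells *rpl39* was lowest, with 55.4%, followed by *rpl4102* and by *rpl29* with 63.3% (100.0% in *SUMO-KallR* cells). The bare promoter of *rpl4102* is shown in the same way, with HomolD in capitals.
*rpl4102* (chrI:2853932-2854131, minus strand): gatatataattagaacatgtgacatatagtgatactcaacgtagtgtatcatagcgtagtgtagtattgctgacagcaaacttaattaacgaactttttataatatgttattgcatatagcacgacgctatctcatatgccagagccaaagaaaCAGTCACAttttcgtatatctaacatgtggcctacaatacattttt
This stretch has a GC content of 33.0%, near the mean of 33.7% over the upstream parts of all ribosomal protein genes.

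Bare upstream parts and summits were also counted by the promoter box. Of the 88 genes with HomolD, 22 (25.0%, interval 16.4 to 35.4%) had an upstream part not wholly covered in *SUMO-KallR* cells, against 14 of the 53 without it (26.4%, interval 15.3 to 40.3%). In untagged cells the counts were 11 of 88 (12.5%) and 11 of 53 (20.8%). Summits in *SUMO-KallR* cells were found in 12 genes with HomolD (13.6%, interval 7.25 to 22.6%) and 16 without it (30.2%, interval 18.3 to 44.3%). In untagged cells there were 9 (10.2%) and 6 (11.3%). The *SUMO-KallR* summit shares with and without HomolD each lie outside the interval of the other, although the intervals overlap. In the other 3 comparisons each interval includes the share of the other group. These comparisons were set up with the summit counts known. HomolD was counted by exact match only, so the 53 genes without it include *rpl302* and *rps2302*, and also the RNase P and MRP genes. Window length and GC content were not matched between genes with and without the box.

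Peaks with their summit in a ribosomal protein gene were taller in the median than those in other genes. In *SUMO-KallR* cells their heights lay between 12.1 and 38.8 with a median of 20.3, against a median of 16.4 and a range of 2.1 to 123.0 in other genes. In untagged cells they lay between 14.8 and 27.1 with a median of 19.9, against 18.6 and a range of 2.0 to 139.2. Of the *SUMO-KallR* summits in ribosomal protein genes, 17 of 28 (60.7%) ranked among the top 25% of the summits in gene windows, and of the untagged ones 5 of 15 (33.3%). The middle 50% of the *SUMO-KallR* heights, 18.6 to 23.2, overlaps that of other genes, 13.6 to 19.3, only slightly, and in untagged cells the ranges 18.1 to 21.6 and 15.7 to 21.3 nearly coincide. No height in the list has an error, so the difference of 3.9 between the *SUMO-KallR* medians could not be tested.

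**Figure D4:**
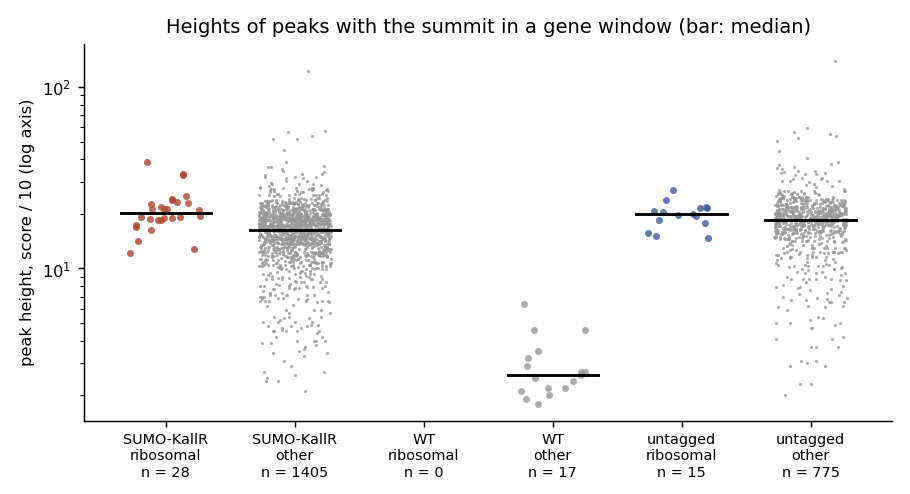
Height of each peak whose summit lies in a gene window (deposited score divided by 10, log axis), for ribosomal protein genes (colour) and other protein-coding genes (grey) in *SUMO-KallR*, WT and untagged ChIP, with the median as a bar and the number of summits below. The coloured points span 12.1 to 38.8 in *SUMO-KallR* cells and 14.8 to 27.1 in untagged cells, inside the spread of the grey points, and the WT list has none.

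The tallest peaks over ribosomal protein genes had their summits elsewhere. *rps402*, for eS4, lies beside the centromere of chromosome II, 1286 bp from the nearest WT summit (height 2.2), which made it the closest to one of all ribosomal protein genes. The *SUMO-KallR* peak over its window had a height of 531.7 and the untagged one 143.7. *rpl1002* and *rpl42*, beside the centromere of chromosome I, were next, 5071 and 8565 bp from a WT summit. Both lay under a *SUMO-KallR* peak of 76.1 and an untagged peak of 23.5. Across all 141 genes the highest peak over the window had a median height of 20.1 in *SUMO-KallR* cells and 21.3 in untagged cells.

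Base composition was compared around the summits and over the genes. Bodies of ribosomal protein genes had a GC content of 42.3 ± 3.76% (SD over 141 genes), those of other genes 36.9 ± 2.64% (SD over 4972). The 201 bp around *SUMO-KallR* summits in ribosomal protein genes had 46.1 ± 5.49% (SD over 28 summits), and around those in other genes 39.8 ± 5.11% (SD over 1405). In untagged cells the values were 43.1 ± 7.01% (SD over 15) and 38.0 ± 4.85% (SD over 775). Among other genes of all lengths, the share with a *SUMO-KallR* summit was 21.9% below 36% GC, 29.1% from 36 to 40%, 38.2% from 40 to 44% and 50.9% at 44% and over. The share with an untagged summit was 13.9%, 15.6%, 18.4% and 15.8% in these classes, with no steady rise. In ribosomal protein genes of the same classes the *SUMO-KallR* share was 10.0% (1 of 10), 23.1% (6 of 26), 14.0% (7 of 50) and 25.5% (14 of 55), also without a steady rise.

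Length and composition were then limited together. Among windows under 2 kb with at least 40% GC in the gene body, 21 of 105 ribosomal protein genes (20.0%) and 63 of 213 other genes (29.6%) had a *SUMO-KallR* summit, which is 19.2 and 21.3 summits per 100 kb. In untagged cells 13 of 105 (12.4%) and 34 of 213 (16.0%) had one, 11.9 and 11.3 per 100 kb. The density in ribosomal protein genes was thus slightly below that of other genes in *SUMO-KallR* cells and slightly above it in untagged cells. These limits do not match the groups in full, since 55 of the 105 ribosomal protein genes but 29 of the 213 other genes had at least 44% GC, and the grouping was chosen after the values above had been seen. Whether composition, transcription or another property of these genes places the summits was not tested.

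Other gene groups that differ in transcription were set beside the ribosomal protein genes. Enzymes of glycolysis, whose genes are also strongly transcribed in rich medium, held a *SUMO-KallR* summit in 11 of 13 genes (84.6%, interval 54.6 to 98.1%), against 19.9% of ribosomal protein genes and 27.5% of other genes. In untagged cells they held one in 2 of 13 (15.4%), against 10.6% of ribosomal protein genes and 15.2% of other genes. Their *SUMO-KallR* summits had a median height of 15.2, against 20.3 in ribosomal protein genes and 16.4 in other genes. The highest were *tpi1*, for triosephosphate isomerase, at 29.7 and *pgi1* at 24.1 (18.1 in untagged cells). The lowest was *tdh1*, for glyceraldehyde-3-phosphate dehydrogenase, at 5.3. Per length of window they held 41.6 *SUMO-KallR* summits per 100 kb (exact Poisson interval 20.8 to 74.5), against 18.9 in ribosomal protein genes and 11.9 in other genes. The glycolytic windows (median 1941 bp) were about as long as those of the other genes (median 2107.5 bp), their gene bodies were richer in GC (45.2% against 36.9%), and the list was chosen with earlier results of these data known.

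Translation elongation factors, which are also abundant, had a *SUMO-KallR* summit in 2 of 7 genes, the paralogs *eft201* (20.3) and *eft202* (25.4), and an untagged one in *tef3* (19.7). Histone genes had 1 of 10 in each list, *pht1* (25.4) in *SUMO-KallR* cells and *htb1* (16.6) in untagged cells. Ribosome assembly factors had windows of 2199 bp in the median, near the 2107.5 bp of the other genes. A *SUMO-KallR* summit was found in 20 of 53 (37.7%, interval 24.8 to 52.1%), against 27.5% of the other genes. An untagged one was found in 8 of 53 (15.1%), against 15.2%. Proteins of the mitochondrial ribosome, whose genes are neither short in the same degree (median 1347 bp) nor rich in GC (35.7%), had 5 of 54 (9.26%) and 3 of 54 (5.56%). Genes named for upregulation in meiosis, which are little transcribed in growing cells, had 22 of 91 (24.2%) and 12 of 91 (13.2%), both within the intervals of the ribosomal protein genes. No member of these lists had a WT summit, and 0.322% of the other genes had one.

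**Figure D5:**
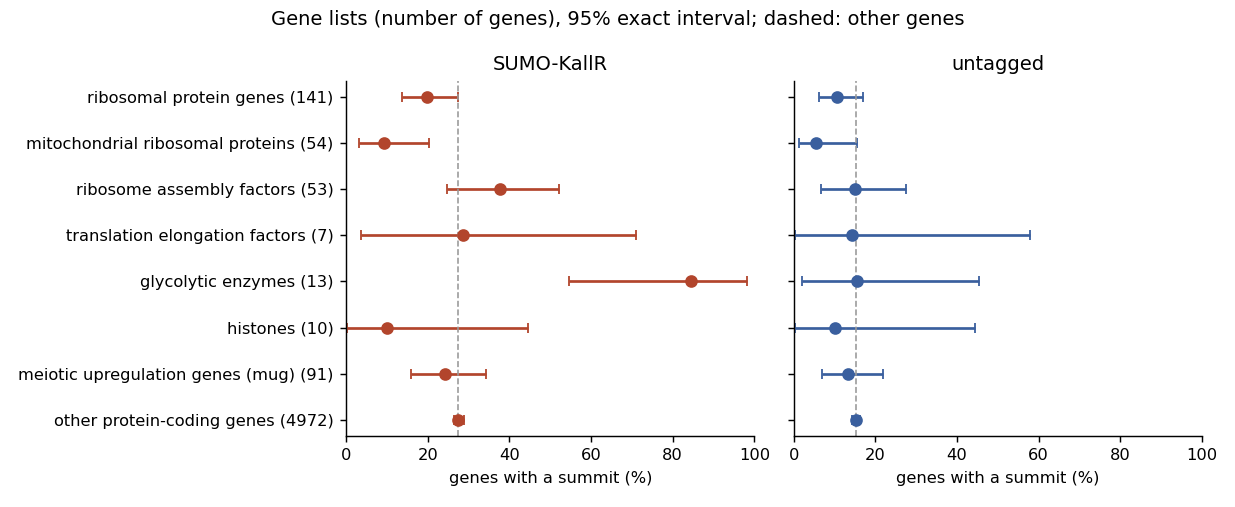
Percentage of genes with a summit in the window for ribosomal protein genes and 6 other gene lists (number of genes in parentheses) in *SUMO-KallR* and untagged ChIP, with 95% exact intervals, and the value of the other protein-coding genes as a dashed line. In *SUMO-KallR* cells glycolytic enzymes lie at 84.6%, right of the dashed line at 27.5%, and ribosomal protein genes at 19.9%.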

How the data were processed

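ChIP libraries of *SUMO-KallR*, WT and untagged cells were used, 1 for each strain, and the 3 inputs only through the authors' peak calling. According to the methods and labels, the authors trimmed reads (Cutadapt), mapped them (Bowtie2) to ASM294v2 and SacCer3, removed rDNA, mitochondrial and duplicate reads (Samtools), and called spike-in calibrated peaks with MACS3, with a later, stricter removal of background. For versions and the cutoff, the sources used here have no entry. The deposited lists give a start, end, summit offset and score for each peak, and the score was divided by 10 to give a height, by the convention of MACS. Because duplicates were removed and only uniquely mapped reads are named in the file headers, repeated sequence can lower or misplace signal.

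Genes came from the ASM294v3 annotation, within whose chromosomes all peaks end, and a summit is column 2 plus column 10. Shares have Clopper-Pearson and densities exact Poisson 95% intervals, which cover counting only. With 1 library for each strain no test was made. Uniqueness is the share of 150-base sequences found once in the genome on both strands. The named genes were the 10 highest with a summit in the *SUMO-KallR* and untagged lists, any in WT, those in both lists, those under 50% covered, their paralogs, those without a ribosomal product, and *rpl301*. Genes named outside this rule were chosen after their values were seen. Members and lists were chosen with earlier results of these data known. Window look-up, coverage and merging were tested on simulated peaks. The 9 alternatives, with 2 added later, changed the window, a height floor, merging or the genes kept. Biopython 1.88, matplotlib 3.10.9, SciPy 1.17.1, pandas 2.3.3 and NumPy 2.4.6 were run under Python 3.11.15.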

Additional observations from a re-analysis of the deposited data

How the results depend on the processing

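No paired analysis was possible because each strain has 1 ChIP library and no result comes from a test. In all 12 settings, the main one included, no ribosomal protein gene had a WT summit. Only 0.322% of other genes had one in the main setting, so this count had little room to change. Of 383 values under 11 alternatives, 306 stayed within the counting interval of the main value or kept the sign of the difference, 68 moved out of it and 9 changed the sign. The 2 settings that kept only windows under 2 kb, or those with at least 40% GC, were added after the data had been seen.

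Windows without the upstream part raised the share of ribosomal protein genes wholly under peaks to 90.8% in *SUMO-KallR* and 94.3% in untagged cells, against 82.1% and 91.7% of other genes, so that the *SUMO-KallR* difference grew to 8.7 percentage points. Windows of 300 bp on each side of the start, which leave out most of the gene body, lowered the share with a summit to 3.55% (*SUMO-KallR*) and 2.84% (untagged), the density to 5.91 and 4.73 per 100 kb, the median *SUMO-KallR* height to 17.0 and the genes with a summit in both lists to 0. Merging peaks closer than 500 bp left a summit in 12.1% (*SUMO-KallR*) and 3.55% (untagged) of the ribosomal protein genes, 11.5 and 3.38 summits per 100 kb, 91.5% and 99.3% of them wholly covered, and 2 genes with a summit in both lists.

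The difference between ribosomal protein genes and other genes changed its sign as follows. In the share with a summit it became 1.78 percentage points in *SUMO-KallR* cells with merged peaks and 0.162 in untagged cells with windows fixed around the start. In *SUMO-KallR* summits per 100 kb it became -0.962 with those fixed windows and -2.14 with windows under 2 kb and at least 40% GC. In the share wholly covered it became -2.04 points in *SUMO-KallR* cells with fixed windows, and in untagged cells 2.61 in gene bodies, 1.25 with 300 bp on both sides, 5.61 with merged peaks and 10.6 in the GC-rich short windows. Without windows of repeated sequence, without genes near centromeres and chromosome ends, and with ribosomal products only, no difference changed its sign. The causes of these shifts were not tested. Peak lists without read counts and without replicates set the limit of all these values.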

Other observations

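A few genes encode ribosomal proteins under other symbols and were not counted. *cpc2*, for the 40S protein RACK1, had a *SUMO-KallR* summit of height 17.6 and none in WT or untagged cells. The genes *ubi1* and *ubi2*, which encode ubiquitin fused to L40, and *ubi3* and *ubi5*, which encode ubiquitin fused to S31, had no summit in any list. All 5 were wholly under *SUMO-KallR* peaks, and in untagged cells all were wholly covered except *ubi1* (67.9%).

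On chromosome III, 4 of 28 ribosomal protein genes (14.3%) had a *SUMO-KallR* summit, against 25.4% of other genes, and 5 of 28 (17.9%) an untagged one, against 16.7%. On chromosome I there were 10 of 62 (16.1%) against 26.8% in *SUMO-KallR* cells and 5 of 62 (8.06%) against 14.6% in untagged cells. On chromosome II there were 14 of 51 (27.5%) against 29.5% and 5 of 51 (9.8%) against 15.3%.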
